A study of Homo sapiens with 18 samples.

Results

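Genes known to be switched on by ERK signalling were described across 6 conditions. The dual-specificity phosphatase genes DUSP1, DUSP4, DUSP5 and DUSP6 and the Sprouty genes SPRY2 and SPRY4 encode products that damp this signalling. So do the Sprouty-related genes SPRED1 and SPRED2. The ETS transcription factor genes ETV4 and ETV5 instead carry part of its output. These 10 genes were chosen by name, and all transcripts carrying a name were summed. This took 46 of 145326 transcripts and gave 10 of 32490 gene names. Polyadenylated RNA was sequenced from spheroidal aggregates of U87mg, an established human glioblastoma line, and of DAOY, an established human line from a desmoplastic cerebellar medulloblastoma. Each line was held for 24 h in a channel filled with medium and growth-factor-reduced Matrigel and then received a direct current electric field (dcEF) of 250 V/m for 2 h or 8 h, or no field (0 h). The 6 groups were U87mg and DAOY at each of these times, with 3 samples a group and 18 in all, and each sample pooled the cells of 3 channels. Each line is a single established culture grown with serum, and channels kept for 2 or 8 h without a field were not analysed here. The field and the time spent in the channel therefore cannot be told apart in any comparison with 0 h. The methods describe more than 3 biological replicates for each condition except DAOY at 8 h, which had 3 because a sample had poor RNA quality. Those 3 with the best quality results were sequenced for each condition, which left no choice for DAOY at 8 h. Replicates carry the numbers 0, 1 and 2, as in the labels.

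ERK, the last kinase of the RAS, RAF, MEK and ERK cascade, carries growth factor signals to the nucleus, where it raises the transcription of many genes. Some of these encode its own brakes: dual-specificity phosphatases remove the activating phosphates from MAP kinases, while Sprouty and SPRED proteins act upstream, between receptor tyrosine kinases and RAF. ETV4 and ETV5, of the PEA3 group of ETS factors, are transcribed under receptor tyrosine kinase signalling and carry part of its transcriptional output, and gliomas and other tumours with an active RAS pathway are known for high levels of such genes.

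The upstream sequences of SPRY2 and SPRY4, the genes whose RNA changed in the time comparisons, and of DUSP1, whose window held the most motif matches, are given first. RefSeq entries (GRCh38.p14) matched 6 of the 10 genes by symbol (DUSP1, DUSP6, SPRY2, SPRY4, SPRED1 and SPRED2). For each gene, the 250 bases before the start of the first listed entry were searched on both strands. The motifs were the cyclic AMP response element TGACGTCA, the AP-1 site TGANTCA, the ETS core CCGGAAG, the GC box GGGCGG, the TATA letters TATAAA and the CArG box. Capitals mark every match, and matches of different motifs may touch. The SPRY2 window is chr13:80341127-80341376 and the SPRY4 window chr5:142324248-142324497, both read on the minus strand, and the DUSP1 window is chr5:172771196-172771445, also on the minus strand.
SPRY2: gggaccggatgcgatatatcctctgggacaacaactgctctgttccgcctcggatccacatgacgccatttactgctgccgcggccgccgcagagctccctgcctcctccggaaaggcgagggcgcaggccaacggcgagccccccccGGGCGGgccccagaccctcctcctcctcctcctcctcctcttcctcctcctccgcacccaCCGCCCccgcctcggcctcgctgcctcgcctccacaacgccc
SPRY4: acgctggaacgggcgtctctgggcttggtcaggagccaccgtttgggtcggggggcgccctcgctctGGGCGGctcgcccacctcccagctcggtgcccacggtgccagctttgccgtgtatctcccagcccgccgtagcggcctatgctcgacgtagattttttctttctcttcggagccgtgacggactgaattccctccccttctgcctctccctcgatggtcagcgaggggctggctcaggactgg
DUSP1: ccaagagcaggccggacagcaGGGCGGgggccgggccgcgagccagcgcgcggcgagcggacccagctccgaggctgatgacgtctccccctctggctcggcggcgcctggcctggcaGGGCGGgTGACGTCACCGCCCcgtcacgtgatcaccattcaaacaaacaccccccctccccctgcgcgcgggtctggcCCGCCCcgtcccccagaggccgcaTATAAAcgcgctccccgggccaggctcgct
In the GENCODE 29 annotation of GRCh38, the DUSP1 window ended exactly where the gene starts and the SPRY2 window lay 175 bases upstream of its gene. The SPRY4 window lay inside the gene, with 170 of its 250 bases in exons of the gene. The DUSP6 and SPRED1 windows lay wholly inside exons of their own genes, and the SPRED2 window had 38 bases in an exon of its gene. Motif counts in these 4 windows therefore do not describe sequence wholly upstream of the annotated gene. DUSP1 held the only cyclic AMP response element among the 6 genes, 125 to 118 bases before its start, a motif found in 1.65% of 35116 upstream windows of the same length. It touched 1 GC box and stood 1 base from another, and DUSP1 also held TATA letters 30 to 25 bases before its start. GC boxes were found 4 times in DUSP1, 2 times in SPRY2 and 1 time each in SPRY4 and SPRED1, against 42.6% of all windows with at least 1. TATA letters, present in 10.7% of windows, were in DUSP1 alone of the 6. The ETS core (8.52% of windows), the AP-1 site (6.57%) and the CArG box (1.16%) were in 0 of the 6. The GC content of the SPRY2, SPRY4 and DUSP1 windows was 70.4%, 65.6% and 74.4%, against a median of 58.0% over all windows.

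Values are TPM, a transcript abundance scaled to the same total in every library, which are corrected for transcript length and so allow levels of different genes to be compared, and estimated counts, on which the tests were run. The 18 libraries held between 8341976 and 15610886 estimated counts, and the 10 genes had between 101 and 2736 counts in each library. How counting error compared with the spread between replicates was not tested. Mitochondrial transcripts took 2.83% to 8.44% of the counts. Within its group, replicate 0 stood farthest from the other replicates in both 0 h groups on the first 2 principal components, and values without it are given where it decides a result. Without U87mg 0 h replicate 0, the genes called at 2 h in U87mg went from 0 of 14106 to 1214 of 14487. Markers of the labelled tumour types gave a mixed picture. Of the glial list in U87mg, GFAP reached at most 3.11 TPM, NES was at 5.58 to 9.25 TPM, and OLIG1 and AQP4 were at 0, while SOX2 was at 2.93 to 6.92 TPM in DAOY and at most 0.086 TPM in U87mg. Of the granule list, EN2 (4.10 to 9.51 TPM) and OTX2 were present in DAOY and at 0 in U87mg, ZIC1, ZIC2 and PAX6 overlapped between the lines, and BARHL1 was at 0 in DAOY. Of markers of other cells, the leukocyte gene PTPRC stayed under 0.67 TPM in every library, whereas CD68 was at 247 to 602 TPM in U87mg and 10.8 to 43.9 TPM in DAOY, and PECAM1 was at 5.46 to 12.9 TPM in DAOY. In RNA from whole channels, fewer cells of a kind and less RNA per cell cannot be told apart.

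At 0 h, 5 of the 10 genes were lower in DAOY than in U87mg and 0 were higher. Genes were called by edgeR's quasi-likelihood test at a false-discovery rate (FDR) below 0.05, the p-values being adjusted by Benjamini-Hochberg across all genes, which called 60.7% of 16482 genes in this comparison and 27.9% as lower. An unadjusted p under 0.05 was found for the same number, 5, of the 10 genes and for 64.3% of all. The 5 lower genes comprised both Sprouty genes and the 3 nuclear phosphatase genes. DUSP6, both SPRED genes and both ETV genes did not pass. The median log2 fold change of the 10 genes was -0.71, against 0.05 over all genes tested.

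SPRY2, an inhibitor of receptor tyrosine kinase signalling, was at 108, 86.7 and 96.7 TPM in the 3 U87mg samples and at 22.4, 19.1 and 23.9 TPM in the 3 DAOY samples without field. The lowest U87mg sample stood above every DAOY sample by a wide margin, a log2 fold change of -2.23 ± 0.19 (SE; adjusted p = 2.2e-08, edgeR). SPRY4, its close relative, was at 16.01, 15.7 and 17.97 TPM in U87mg and at 7.13, 8.76 and 7.06 TPM in DAOY. These groups did not overlap either (log2 fold change -1.11 ± 0.18 SE, adjusted p = 4.6e-05, edgeR). SPRY2 was the more abundant of the pair in all samples of both lines.

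Among the phosphatases, DUSP4, a nuclear enzyme, was at 43.4, 38.4 and 33.1 TPM in U87mg and at 11.4, 6.16 and 10.9 TPM in DAOY (log2 fold change -2.04 ± 0.27 SE, adjusted p = 3.8e-06, edgeR). DUSP5, nuclear and specific for ERK, was at 42.5, 27.4 and 36.3 TPM against 13.4, 10.1 and 19.6 TPM (log2 fold change -1.38 ± 0.30 SE, adjusted p = 6.3e-04, edgeR). DUSP1, an immediate early gene whose product acts on p38 and JNK as well as ERK, was at 99.0, 52.9 and 72.1 TPM against 39.0, 28.7 and 43.1 TPM (log2 fold change -1.10 ± 0.24 SE, adjusted p = 8.0e-04, edgeR). Each of these 3 genes was higher in all 3 U87mg samples than in any DAOY sample. DUSP6, the cytoplasmic ERK phosphatase, was the most abundant of the 10 genes in both lines, at 136, 89.9 and 123 TPM in U87mg and 140, 102 and 93.8 TPM in DAOY. Here the lines overlapped, and the 95% interval of the log2 fold change ran from -0.71 to 0.69.

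SPRED2, a membrane inhibitor of RAF activation, was at 52.2 to 62.0 TPM in U87mg and 43.2 to 48.2 TPM in DAOY. The groups did not overlap, but the difference did not pass (log2 fold change -0.30 ± 0.15 SE, adjusted p = 0.088, edgeR). It passed without DAOY 0 h replicate 0 (adjusted p = 0.0076) and without U87mg 0 h replicate 1 (adjusted p = 0.034), and in 5 of 14 alternatives in all, the others being limma at either pseudocount (adjusted p = 0.023 and 0.021) and the removal of replicate 0 from both lines (adjusted p = 0.029). With SPRED2, 6 genes had TPM values in DAOY that lay below all those of U87mg, against a background of 23.1% of genes. SPRED1, which recruits neurofibromin to the membrane, stood at 25.7 to 30.0 TPM in U87mg and 27.4 to 33.4 TPM in DAOY, and its interval ran from -0.36 to 0.33. ETV4 (14.3 to 21.9 TPM in U87mg, 11.7 to 20.6 TPM in DAOY) and ETV5 (57.7 to 67.5 TPM and 56.1 to 62.2 TPM) had overlapping ranges and intervals from -1.004 to 0.35 and from -0.02 to 0.47.

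By mean TPM at 0 h, the order in U87mg was DUSP6 (116 ± 24 SD, n = 3), SPRY2 (97.1 ± 10.6), DUSP1 (74.7 ± 23.1), ETV5 (61.2 ± 5.4) and SPRED2 (56.4 ± 5.1), and each neighbour in this order overlapped the next. Below a gap came DUSP4, DUSP5 and SPRED1, which overlapped, and below another gap ETV4 and SPRY4. In DAOY, DUSP6 (112 ± 24), ETV5 (59.1 ± 3.1) and SPRED2 (45.0 ± 2.8) stood apart from each other and from the rest. DUSP1 and SPRED1 overlapped, and SPRY2, ETV4, DUSP5, DUSP4 and SPRY4 (7.65 ± 0.96) formed a run in which every neighbour overlapped. SPRY2 thus held the second place in U87mg and the sixth in DAOY.

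**Figure D1:**
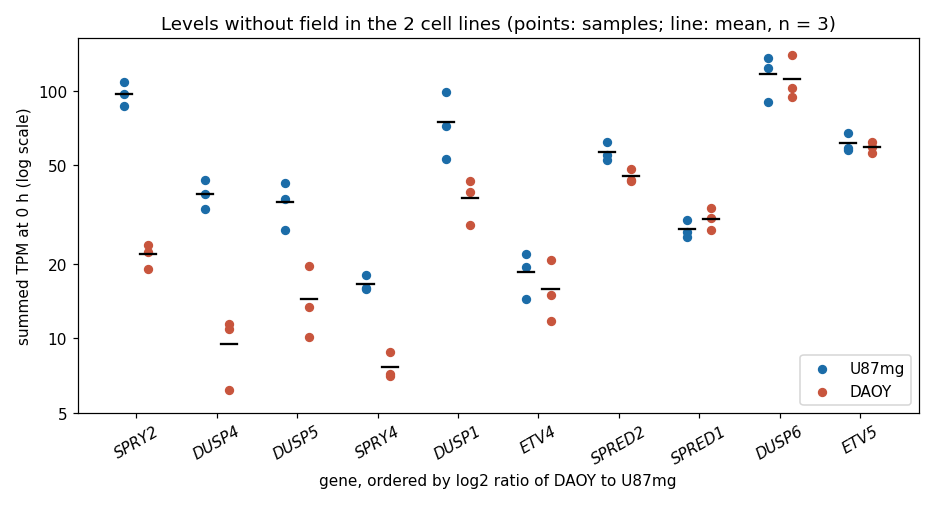
Summed TPM (log scale) of the 10 genes without field, with genes ordered by the log2 ratio of DAOY to U87mg, 1 point per sample and a line at the mean of each group of 3. For SPRY2 the U87mg points lie at 86.7 to 108 TPM and the DAOY points at 19.1 to 23.9 TPM, while the points of DUSP6 and SPRED1 at the right overlap.

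In DAOY, both Sprouty genes rose between 0 and 8 h and 0 of the other 8 genes passed the test. SPRY4 was at 7.13, 8.76 and 7.06 TPM at 0 h, at 16.7, 11.9 and 13.98 TPM at 2 h, and at 19.7, 19.4 and 14.4 TPM at 8 h. Every sample with field stood above every sample without it, at both times, while the 2 h and 8 h samples overlapped. At 8 h the log2 fold change was 1.24 ± 0.20 (SE; 2.37-fold, 95% interval of the log2 value 0.81 to 1.68, adjusted p = 0.011, edgeR's quasi-likelihood test). The call was lost without DAOY 8 h replicate 1 (log2 fold change 1.14, adjusted p = 0.059) and was kept in 15 of 16 alternatives. SPRY4 alone of the 10 genes also met the study's criterion, an FDR below 0.05 with a fold change of at least 2-fold in either direction, which 3.13% of genes met.

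SPRY2 in DAOY was at 22.4, 19.1 and 23.9 TPM at 0 h, at 28.5, 32.0 and 40.5 TPM at 2 h, and at 32.3, 38.3 and 41.1 TPM at 8 h. Here too the samples at 2 h and at 8 h all stood above those at 0 h and overlapped each other. The log2 fold change at 8 h was 0.83 ± 0.20 (SE; 1.78-fold, 95% interval 0.39 to 1.27, adjusted p = 0.038, edgeR). This call was kept without 0 h replicate 0 (adjusted p = 0.041) and lost without any other of the 6 libraries: the adjusted p was 0.089 without 0 h replicate 1, 0.092 without 0 h replicate 2, and 0.054, 0.13 and 0.13 without 8 h replicates 0, 1 and 2. The log2 fold change stayed between 0.71 and 0.95 in these fits. The call was kept in 6 of 16 alternatives in all, among them DESeq2 (adjusted p = 0.0050), and was also lost with limma (adjusted p = 0.054 and 0.053), with coding transcripts alone (adjusted p = 0.051) and in a fit of the 0 h and 8 h samples by themselves (adjusted p = 0.072). Even at its 8 h level, SPRY2 in DAOY remained under the lowest U87mg sample of any time, 73.4 TPM.

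The 2 genes that rose stand against 5.85% of 15396 genes called in this comparison and 2.34% called as higher. All 3 samples at 8 h lay above all 3 at 0 h for 6 of the 10 genes (SPRY2, SPRY4, DUSP4, DUSP5, SPRED1 and ETV5), against 8.86% of genes tested, and 0 genes lay wholly below, against 15% of genes. The most abundant transcripts of ETV5 and SPRED1 overlapped between these times. That of ETV5 was at 47.4 to 55.1 TPM at 0 h and 43.3 to 58.6 TPM at 8 h. That of SPRED1 was at 19.6 to 26.8 TPM and 26.3 to 27.2 TPM. In 8 h replicate 2, a retained-intron transcript of ETV5 with 3 estimated counts gave 12.5 of the 64.1 TPM. At an unadjusted p under 0.05, 4 of the 10 genes (both Sprouty genes, DUSP4 and DUSP5) stood against 22.7% of genes. The median log2 fold change of the 10 genes was 0.35, against -0.01 over all genes. At 2 h the values were 0.77 ± 0.20 for SPRY4 and 0.58 ± 0.20 for SPRY2 (log2 fold change ± SE; adjusted p = 0.999 for both by edgeR), and 0 of the 10 genes passed, as did 0 of 15396 genes tested. At an unadjusted p under 0.05, 2 of the 10 genes (these same Sprouty genes) stood at 2 h against 2.75% of genes, and DESeq2 and limma also called 0 of the 10. Samples at 2 h lay wholly above those at 0 h for SPRED2, SPRY2 and SPRY4, against 3.59% of genes. The 2 h and 8 h comparisons share their 0 h samples. Between 2 h and 8 h, 0 of the 10 genes passed (1.58% of genes did; DUSP5 and SPRY4 had an unadjusted p under 0.05, against 18.7% of genes, and DESeq2 and limma called 0).

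Libraries at 8 h in DAOY also differed in other measures. Mitochondrial transcripts took 5.97% to 8.44% of counts at 8 h and 2.92% to 5.70% at 0 h, without overlap. The summed TPM of the cerebellar granule markers was 64.5 to 78.0 at 8 h and 46.2 to 54.4 at 0 h, a list in which ATOH1 was not analysed here, BARHL1 was at 0 in all DAOY libraries and NEUROD1 had a median of 0. Glial markers summed to 8.21 to 10.6 TPM at 8 h and 7.45 to 12.05 TPM at 0 h. The part of these measures in the rise of SPRY2 and SPRY4 was not tested.

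Of the nuclear phosphatases in DAOY, DUSP5 was at 13.4, 10.1 and 19.6 TPM at 0 h, at 12.3, 23.0 and 16.8 TPM at 2 h, and at 21.1, 23.7 and 36.8 TPM at 8 h. The 8 h samples all lay above those at 0 h, by a small margin for the lowest, and the difference did not pass (log2 fold change 0.99 ± 0.31 SE, adjusted p = 0.090, edgeR). It did pass in 3 alternatives, with adjusted p-values of 0.029 by DESeq2, 0.018 without the filter on low counts and 0.044 in a fit of all 18 samples. DUSP4 was at 11.4, 6.16 and 10.9 TPM at 0 h and at 15.0, 11.8 and 18.5 TPM at 8 h. These groups were separated by less than 1 TPM, and the log2 fold change of 0.70 ± 0.27 (SE) did not pass (adjusted p = 0.16, edgeR).

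DUSP1 in DAOY was at 39.0, 28.7 and 43.1 TPM at 0 h, 33.7, 36.4 and 36.8 TPM at 2 h, and 28.6, 20.4 and 31.6 TPM at 8 h. The 8 h samples lay below all of those at 2 h, against 18.2% of genes, and overlapped those at 0 h, with a log2 fold change from 0 h of -0.40 ± 0.21 (SE; adjusted p = 0.28, edgeR). DUSP6 had values of 93.8 to 140 TPM at 0 h, 102 to 131 TPM at 2 h and 86.5 to 106 TPM at 8 h. All 3 times overlapped, with a log2 fold change at 8 h of -0.22 ± 0.25 (SE; adjusted p = 0.67, edgeR), which turned to 0.21 without DAOY 0 h replicate 0. The SPRED and ETV genes had log2 fold changes of 0.23 (SPRED1), 0.15 (SPRED2), 0.47 (ETV4) and 0.06 (ETV5) at 8 h, with adjusted p-values from 0.41 to 0.85 by edgeR. ETV4 was the most variable of them, at 11.7 to 20.6 TPM at 0 h and 16.4 to 26 TPM at 8 h.

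**Figure D2:**
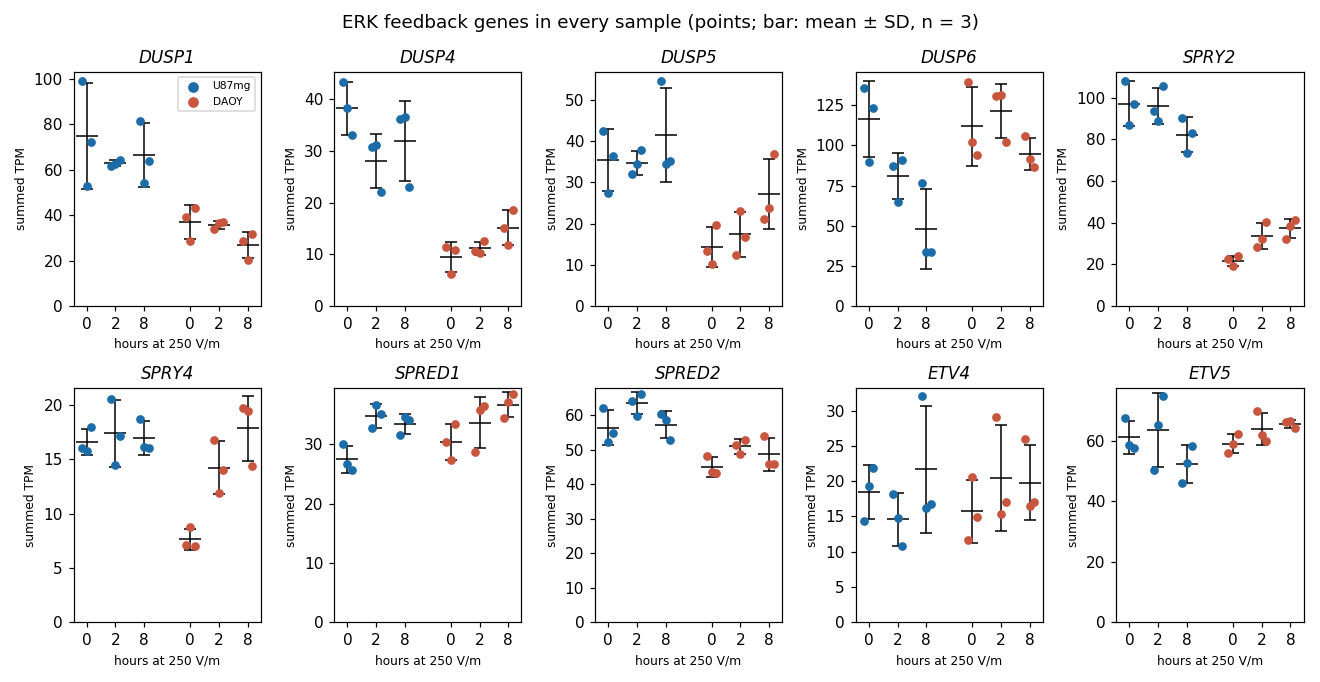
Summed TPM of each gene in all 18 samples, with hours at 250 V/m on the horizontal axis for U87mg (blue) and DAOY (red). Points are samples and black bars the mean ± SD of 3. In DAOY the SPRY4 points move from 7.06 to 8.76 TPM at 0 h to 14.4 to 19.7 TPM at 8 h, and in U87mg the DUSP6 points at 8 h lie below all of those at 0 h.

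In U87mg, 0 of the 10 genes passed the test at 2 h or at 8 h, where 0% and 1.72% of 14106 genes were called. DESeq2 and limma also called 0 of the 10 in both comparisons, and 2 genes at 2 h and 1 gene at 8 h had an unadjusted p under 0.05, against 8.78% and 15.9% of genes. Both comparisons use the same 0 h samples. The median log2 fold change of the 10 genes was -0.05 at 2 h and 0.02 at 8 h, against -0.02 and 0.00 over all genes. Between 2 h and 8 h, 0 of the 10 genes passed, where 0.822% of genes were called (DUSP6 and ETV4 had an unadjusted p under 0.05, against 19.5% of genes, and 0 were called by DESeq2 or limma).

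The lowest fitted change in U87mg belonged to DUSP6, at 136, 89.9 and 123 TPM at 0 h, at 87.3, 64.8 and 90.7 TPM at 2 h, and at 76.9, 33.9 and 33.5 TPM at 8 h. In summed TPM, all 8 h samples lay below all 0 h samples, against 10.2% of genes. Replicate 0 at 8 h, however, stood more than 2-fold above the others and overlapped the 2 h samples. In 0 h replicate 1, the lowest of its group, a transcript annotated as processed, ENST00000547140, gave 24.3 of the 89.9 TPM from 86.1 estimated counts. DUSP6 had 1319 estimated counts in 0 h replicate 1 and 1719 in 8 h replicate 0, in libraries of 11676742 and 14767816 counts. The log2 fold change from 0 to 8 h was -1.17 ± 0.32 (SE; 95% interval -1.87 to -0.46), with an unadjusted p of 0.0035 and an adjusted p of 0.096 by edgeR's quasi-likelihood test. The change passed without U87mg 8 h replicate 0 (log2 fold change -1.67, adjusted p = 0.027), and the log2 value was -0.88 without U87mg 0 h replicate 0. It also passed by edgeR without the filter on low counts (adjusted p = 1.9e-11), a fit of 28398 genes in place of 14106. How far the added low-count genes set that value was not tested. U87mg libraries also differed at 8 h in summed glial markers (6.34 to 8.43 TPM, against 9.75 to 11.995 TPM at 0 h) and granule markers (28.01 to 34.0 TPM, against 35.7 to 52.1 TPM), both without overlap, and their part in the DUSP6 values was not tested. At 2 h the log2 fold change was -0.32 ± 0.32 (SE; adjusted p = 0.61, edgeR), and from 2 to 8 h it was -0.84 ± 0.32 (SE; adjusted p = 0.18, edgeR).

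DUSP6 lies on chr12:89347232-89353271 (GRCh38, minus strand), and 3 of its 4 transcripts in the table carried most of its TPM. The coding transcript ENST00000308385 (2 exons) held 57.3% of the DUSP6 TPM in U87mg on average and was at 48.0 to 79.7 TPM at 0 h and 20.1 to 37.5 TPM at 8 h, without overlap. Another coding transcript, ENST00000279488 (31.0%), was at 17.6 to 47.3 TPM at 0 h and 8.43 to 23.0 TPM at 8 h, which overlapped. A transcript annotated as processed, ENST00000547140, ran from 7.49 to 24.3 TPM at 0 h, from 0 to 4.38 TPM at 2 h and from 0.78 to 13.6 TPM at 8 h, and had its lowest values at 2 h. Exons of the antisense gene AC024909.2 overlap those of DUSP6, and although the kit kept strand, whether strand was used in counting is not given in the sources used here, so reads of the pair could be shared. The other genes of the 10 with exons that overlap another gene were ETV4 (DHX8, opposite strand) and ETV5 (DGKG, same strand).

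Both Sprouty genes stayed within their spread in U87mg. SPRY4 was at 16.01, 15.7 and 17.97 TPM at 0 h, 20.5, 14.4 and 17.1 TPM at 2 h, and 18.7, 16.1 and 16.04 TPM at 8 h, with all 3 groups overlapping. The 95% interval of its log2 fold change at 8 h, -0.25 to 0.45, leaves out a change of the size fitted in DAOY. SPRY2 was at 86.7 to 108 TPM at 0 h, 89.0 to 106 TPM at 2 h and 73.4 to 90.4 TPM at 8 h, with an interval at 8 h of -0.47 to 0.15.

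SPRED1 in U87mg was at 30.0, 26.7 and 25.7 TPM at 0 h, 32.7, 36.6 and 35.1 TPM at 2 h, and 31.5, 34.6 and 34.1 TPM at 8 h. In summed TPM, samples with field stood above all samples without it, against 10.8% of genes at 2 h and 5.8% at 8 h. Its most abundant transcript, ENST00000299084, was at 22.04 to 26.53 TPM at 0 h and 24.53 to 27.86 TPM at 8 h, which overlapped. At 2 h this transcript was at 28.15 to 30.67 TPM, above all 0 h samples. A transcript annotated as processed, ENST00000561205, was at 3.5 to 4.43 TPM at 0 h and 5.93 to 7.01 TPM at 8 h. The SPRED1 log2 fold changes of 0.31 ± 0.12 at 2 h and 0.24 ± 0.12 at 8 h (SE) did not pass (adjusted p = 0.50 and 0.37, edgeR). Without U87mg 0 h replicate 0 the 2 h change was 0.43 and passed (adjusted p = 0.041). DUSP4 was at 43.4, 38.4 and 33.1 TPM at 0 h and 30.8, 31.2 and 22.1 TPM at 2 h, where it lay below all 0 h samples, against 4.49% of genes. The change of DUSP4 was -0.47 ± 0.19 on the log2 scale at 2 h (SE; adjusted p = 0.50, edgeR) and -0.19 ± 0.19 at 8 h, when its samples (23.1 to 36.6 TPM) again overlapped those at 0 h.

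The remaining U87mg genes had wide or overlapping ranges. DUSP1 was at 52.9 to 99.0 TPM at 0 h, 61.7 to 64.1 TPM at 2 h and 53.9 to 81.4 TPM at 8 h (log2 fold change at 8 h -0.09 ± 0.22 SE). That value became 0.19 without U87mg 0 h replicate 0, the highest sample. DUSP5 (log2 fold change at 8 h 0.30), SPRED2 (0.14) and ETV5 (-0.06) had adjusted p-values of 0.55 to 0.86 by edgeR. ETV4 was at 32.1 TPM in 8 h replicate 0 and at 16.1 and 16.7 TPM in the others, against 14.3 to 21.9 TPM at 0 h. The fitted change of ETV4 was 0.46 ± 0.29 on the log2 scale from 0 h and 0.72 ± 0.30 from 2 h (SE; adjusted p = 0.51 and 0.21, edgeR). Replicate 0 at 8 h thus had the highest values of its group for DUSP1, DUSP5, DUSP6, SPRY2, SPRY4, SPRED2 and ETV4, and the lowest for SPRED1 and ETV5.

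**Figure D3:**
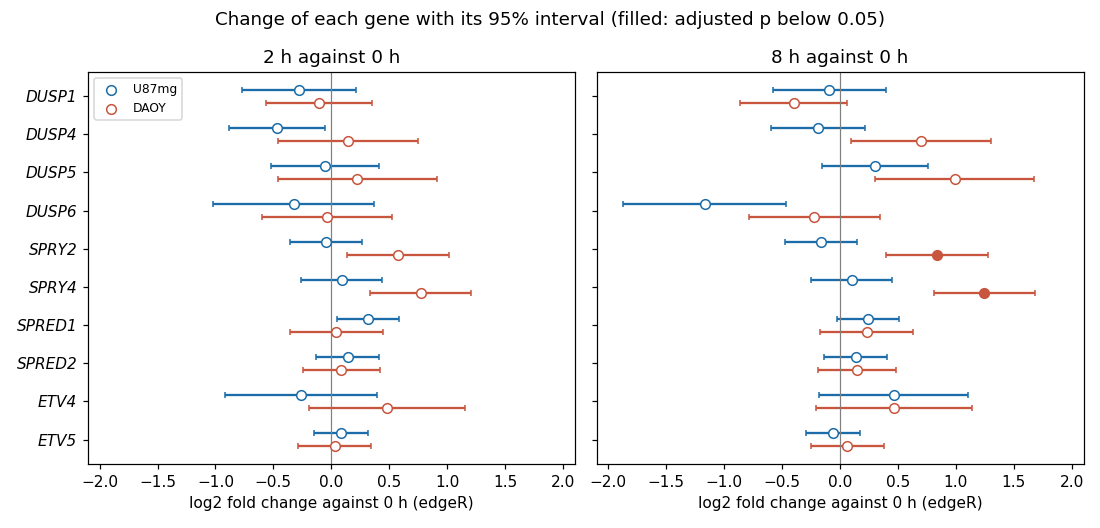
Log2 fold change of each gene against 0 h by edgeR, at 2 h (left) and 8 h (right), for U87mg (blue) and DAOY (red), with bars for the 95% interval and filled points for an adjusted p below 0.05. The filled points are SPRY2 (0.83) and SPRY4 (1.24) in DAOY at 8 h, and the point farthest to the left is DUSP6 (-1.17) in U87mg at 8 h, which is open.

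Whether the change over time differed between DAOY and U87mg was tested by an interaction term, with the 18 samples fitted jointly. For 0 of the 10 genes did the 8 h change differ between DAOY and U87mg at an FDR below 0.05, where 2 of 16482 genes, 0.0121%, were called. The largest differences belonged to the Sprouty genes: the 8 h change was higher in DAOY by a log2 value of 1.15 ± 0.25 for SPRY4 (SE; 95% interval 0.61 to 1.68, unadjusted p = 2.8e-04, adjusted p = 0.16) and by 1.00 ± 0.26 for SPRY2 (SE; 95% interval 0.46 to 1.55, unadjusted p = 0.0011, adjusted p = 0.20), both by edgeR. DESeq2 and the fit without a filter called both, with adjusted p-values for SPRY2 of 0.048 and 0.035. The differences were 0.95 ± 0.47 for DUSP6, 0.89 ± 0.36 for DUSP4 and 0.70 ± 0.41 for DUSP5 (SE; adjusted p = 0.60, 0.46 and 0.69, edgeR). Of the 10 genes, 3 had an unadjusted p under 0.05, against 8.88% of genes. At 2 h the differences were 0.66 ± 0.25 for SPRY4 and 0.61 ± 0.26 for SPRY2 (SE; adjusted p = 0.62 for both, edgeR). There 0 of the 10 genes and 0% of 16482 genes were called, with 2 of the 10 and 6.4% of genes at an unadjusted p under 0.05 and 0 of the 10 by DESeq2.

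Within a line, the 10 genes did not vary together as a block. Over the 9 samples of DAOY, Pearson's r of log2(TPM + 1) was 0.74 for SPRY2 with SPRY4, 0.79 for DUSP4 with DUSP5 and 0.91 for DUSP5 with SPRED1, while DUSP6 had r of -0.38 with SPRY2. In U87mg, r was 0.23 for SPRY2 with SPRY4, 0.85 for DUSP6 with SPRY2 and -0.85 for ETV4 with ETV5. These samples share libraries and time groups, so the values describe them only. Over all 18 samples, with the mean of each line subtracted, the genes most like SPRY4 among 13137 were SLCO4A1 (r = 0.81), CYR61 (0.80) and DNAH10OS (0.79), and those most like DUSP6 were LIF (0.91), CSF2 (0.85) and ZNF280B (0.80). For DUSP1 they were WIPI1 (0.88), UBA6-AS1 (0.81) and PTGES (0.81), and for ETV5 RP11-10O22 (0.84), DIP2A (0.76) and HOXC4 (0.73).

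Other genes of the pathway were counted from 5 lists, which were chosen with earlier results of these data known, so the counts describe these lists only. Of 11 other genes that follow ERK activity, 4 rose in DAOY at 8 h and 0 fell, where 2.34% of all genes were called as higher, with a median log2 fold change of 0.64 against -0.01 over all genes. EPHA2, a receptor tyrosine kinase, went from 3.19 ± 1.19 to 9.50 ± 2.36 TPM (SD, n = 3; log2 fold change 1.65 ± 0.31 SE, adjusted p = 0.018 by edgeR). EGR1, an immediate early zinc finger factor, went from 52.6 ± 6.1 to 112 ± 40 TPM (log2 fold change 1.17, adjusted p = 0.043, edgeR). The AP-1 partners MAFF and FOSL1 rose by log2 values of 0.99 and 0.94 (adjusted p = 0.027 and 0.028, edgeR). In U87mg 1 of these 11 rose at 8 h and 0 fell: EGR1, from 13.2 ± 1.5 to 38.8 ± 22.1 TPM (log2 fold change 1.66, adjusted p = 0.049, edgeR), with a list median of 0.23, where 0.95% of all genes were called as higher. At 2 h EGR1 was at 39.2 ± 5.0 TPM in U87mg and 93.9 ± 25.4 TPM in DAOY. These 2 h changes did not pass (log2 fold change 1.55 and 0.78, adjusted p = 0.50 and 0.999, edgeR). Both 8 h counts depended on single libraries. In DAOY 1, 2 and 1 of the 11 passed without 0 h replicates 0, 1 and 2, and 3, 0 and 1 without 8 h replicates 0, 1 and 2. In U87mg EGR1 passed only without 8 h replicate 1 among the fits that left out 1 library. Between 2 h and 8 h, EPHA2 rose in DAOY (log2 fold change 1.43, adjusted p = 0.04965, edgeR), where 1.58% of all genes were called and 0.669% were called as higher. This call lay at the threshold. It was lost without 2 h replicate 1 or 2 and without 8 h replicate 1 or 2, fits in which 0 of all genes were called. In U87mg 0 of the 11 passed, where 0.822% of all genes were called.

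The other lists gave few calls over time, to be read against the 1.72% of genes called in U87mg and 5.85% in DAOY at 8 h, and the 15.9% and 22.7% with an unadjusted p under 0.05. Of 21 genes of the RAS to ERK cascade and its adaptors, 0 passed at 8 h in U87mg (4 at an unadjusted p under 0.05, 1 by DESeq2, 0 by limma), and 1 rose in DAOY: MAP2K1, which encodes the ERK kinase MEK1, from 45.8 ± 8.4 to 75.5 ± 20.6 TPM (log2 fold change 0.86, adjusted p = 0.028, edgeR). This call was also made without DAOY 0 h replicate 0 and was lost without any of the other 5 libraries. Of 9 stress response genes, PPP1R15A, which directs a phosphatase to eIF2-alpha, rose in DAOY (log2 fold change 1.19, adjusted p = 0.022, edgeR), and it was not called without 8 h replicates 1 or 2. Of 7 other ETS factors, ETS2 rose there (1.06, adjusted p = 0.047, edgeR), and it was called in 2 of the 6 fits that left out 1 library, those without 0 h replicate 2 and without 8 h replicate 0. Of 11 further members of the DUSP, SPRY, SPRED and ETV families, 0 passed in either line over time, with 9 tested in U87mg and 11 in DAOY (2 and 3 at an unadjusted p under 0.05 at 8 h; DESeq2 called 0 and 2, limma 0 and 0). In U87mg at 8 h, 0 of 8 tested stress genes and 0 of 7 ETS factors passed (4 and 5 at an unadjusted p under 0.05, 1 and 0 by DESeq2, 0 by limma). At 2 h, 0 genes of the 5 lists passed in either line by edgeR, DESeq2 or limma. An unadjusted p under 0.05 was reached by 8.78% of all genes in U87mg and 2.75% in DAOY. In DAOY it was reached by 4 of the 11 other ERK targets (EGR1, FOSL1, MAFF and MYC). There it was also reached by 2 of 11 family relatives, 1 of 9 stress genes, 0 of 21 cascade genes and 0 of 7 ETS factors. In U87mg the counts were 1 of 11 ERK targets, 0 of 9 relatives, 2 of 8 stress genes, 4 of 21 cascade genes and 2 of 7 ETS factors.

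Between the lines at 0 h, 3 of the 11 other ERK targets were higher in DAOY (EGR1, FOS and PHLDA1) and 8 were lower, with FOSL1 at 41.0 ± 13 against 208 ± 48 TPM and CCND1, which encodes cyclin D1, at 67.0 ± 34.5 against 352 ± 24 TPM. Among the family relatives, 7 of 11 were lower in DAOY and 3 were higher. ETV1, the third PEA3 factor, was at 58.6 ± 15.8 TPM in DAOY and 153 ± 10 TPM in U87mg, and SPRED3 at 1.15 ± 0.63 and 10.8 ± 1.5 TPM. Of the cascade genes, 5 were higher and 7 lower, of the stress genes 1 and 6, and of the ETS factors 4 and 1, again where 60.7% of all genes were called. KSR1, a scaffold for RAF and MEK, was at 98.8 ± 29.3 TPM in DAOY and 2.2 ± 1.0 TPM in U87mg.

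**Figure D4:**
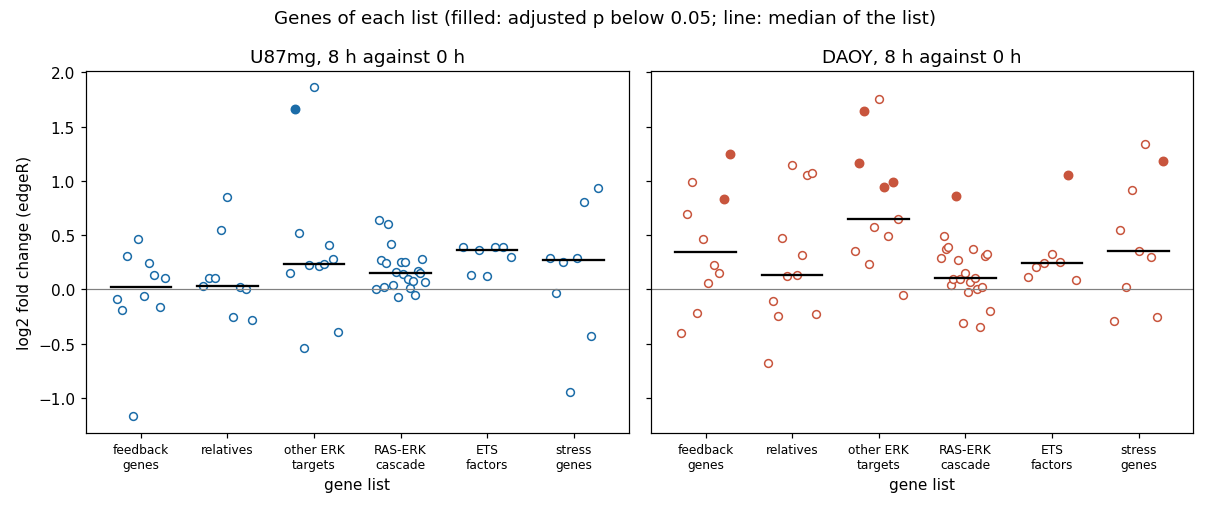
Log2 fold change at 8 h against 0 h by edgeR for every tested gene of 6 lists in U87mg (left) and DAOY (right), with filled points for an adjusted p below 0.05 and a line at each list's median. In DAOY the medians are 0.35 for the 10 genes (labelled feedback genes) and 0.64 for the other ERK targets, and in U87mg they are 0.02 and 0.23.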

How the data were processed

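RNA was pulled down by its poly(A) tail from 18 samples, 3 in each of 6 groups, and sequenced as single-end reads after a strand-keeping library kit. The authors trimmed the reads (FastQC toolkit 2.0.0) and assigned them with Kallisto 0.43.0 to GENCODE 24 transcripts, and deposited estimated counts and TPM per transcript and sample. The strand option is not given in the sources used here. Columns of the authors' own comparisons (Sleuth 0.28.1 in R 3.2.1) deposited beside them, with p-values, q-values and log2 fold changes, were not used, and 0 per-sample columns were left unmapped.

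Rows of the same gene name were summed, and summed counts were rounded to whole numbers. Groups were taken from the sample labels. Genes passing edgeR's expression filter were tested with edgeR 4.0.16 (TMM, quasi-likelihood test, R 4.3.3), using the 9 samples of a line for times and all 18 for contrasts between lines, with Benjamini-Hochberg adjustment over all genes at an FDR of 0.05. Alternatives were DESeq2 1.42.0, limma 3.58.1 on log2(TPM + 1) and log2(TPM + 0.1), RLE size factors, no filter, coding transcripts alone, a replicate block, other sample sets, the study's criterion and each replicate left out. Leaving out replicate 0 of both 0 h groups was added after seeing the data. Fits were tested on simulated data. Of 100 genes given a true absolute log2 fold change of 1, 71 were called in U87mg and 39 in DAOY at 8 h against 0 h. For the difference of the 8 h changes, 20 of 100 were called. In these simulations, most changes of this size were missed in DAOY and for the difference of the 8 h changes. Fewer were missed in U87mg. The simulated counts were drawn independently, with no library standing apart from its group, so these rates may not hold for the real samples.

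The 10 genes, the 5 further lists and the marker lists were chosen with earlier results of these data known. All 10 genes are given, with at most 4 changed genes of each further list and comparison, largest change first. Coordinates are from GENCODE 29 and upstream windows from RefSeq, both GRCh38. Intervals are 95%. Whether a replicate number marks a shared culture or day is not given in the labels. Python 3.11.15, numpy 2.4.6, pandas 2.3.3 and matplotlib 3.10.9 were used.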

Additional observations from a re-analysis of the deposited data

How the results depend on the processing

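Of 1500 values of the 10 genes recomputed under an alternative, over all 9 comparisons, 1364 kept their direction and their side of the threshold, 20 newly passed it, 11 lost it and 105 reversed. In DAOY at 8 h, 2 genes were called, against 1 (SPRY4) under the study's criterion, with limma at either pseudocount, with coding transcripts alone and with only the 6 samples compared, and 0 to 2 with a replicate left out (0 without DAOY 8 h replicate 1). In U87mg, 0 genes were called at 2 h, against 1 (SPRED1) without replicate 0 of both 0 h groups and 0 to 1 with a replicate left out. At 8 h there, 0 became 1 (DUSP6) without the filter, with 0 to 1 when a replicate was left out, and from 2 to 8 h 0 became 2 (DUSP6 and ETV4) without the filter. For the difference of the 8 h changes, 0 became 2 (SPRY2 and SPRY4) with DESeq2 and without the filter. The causes were not tested.

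Same-numbered samples of a line had correlations over 0.1 in 5 of 9 pairs in U87mg (3 of 18 with different numbers) and in 2 of 9 in DAOY (7 of 18), and a sample correlated best with its own number in 10 of 18 matches in U87mg and 4 of 18 in DAOY. The labels do not say what a number shares, so the numbers were not taken as pairing. With the replicate block, 1 gene was called in DAOY at 8 h (SPRY4) and 1 in U87mg at 8 h (DUSP6, adjusted p = 0.045 by edgeR).

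Reversed values all belonged to changes that did not pass, and those of changes given above are as follows. Without replicate 0 of both 0 h groups, the 8 h log2 fold change was 0.19 for DUSP1 in U87mg and 0.21 for DUSP6 in DAOY. Between the lines at 0 h, DUSP6 was at 0.025 with DESeq2, 0.024 with RLE factors and 0.0012 with coding transcripts, SPRED1 at 0.025 with DESeq2, 0.025 with RLE factors and 0.14 with limma at either pseudocount, and ETV5 at -0.0487 and -0.0494 with limma, although DESeq2 called ETV5 higher in DAOY (adjusted p = 0.049). With a replicate left out, the ranges were -0.30 to 0.19 (DUSP1, U87mg 8 h), -0.42 to 0.21 (DUSP6, DAOY 8 h), -0.0027 to 0.18 (ETV5, DAOY 8 h), -0.47 to 0.29 (DUSP6, 0 h) and -0.23 to 0.13 (SPRED1, 0 h). The median of all genes moved by more than 0.1 only from 2 to 8 h in U87mg, from 0.04 to -0.07 with limma on log2(TPM + 0.1).

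Over all genes, the 900 called in DAOY at 8 h became 31 without DAOY 8 h replicate 1 and 79 without DAOY 8 h replicate 2.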
